A study of Mus musculus with 4 samples.

Results

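Germinal centre (GC) B cells and naive B cells were compared in the peripheral lymph nodes (pLN) of immunised mice, over all 45101 probe sets of 1 Affymetrix mouse expression array for each cell type. The 2 arrays are 2 of the 4 in the series. The others hold the same 2 cell types sorted from Peyer's patches (PP), lymphoid organs in the wall of the gut. The pLN donors were adult wild type C57BL6/J mice immunised with TNP-KLH, a hapten-carrier antigen, in incomplete Freund's adjuvant. The PP donors were untreated mice of the same strain. GC cells were sorted as B220+PNA+Fas+ and naive cells as B220+PNA-Fas-, where B220 marks B cells and PNA is a lectin that binds GC B cells. The naive cells came from the immunised nodes too, so both pLN groups share the antigen and adjuvant, and the day of harvest is not given in the labels. Each sample was a pool of 3 to 5 mice on 1 array, so no difference here has a replicate check and none was tested. The array with the GC label also reads RNA of any other cell that passed the sort, and in such bulk samples fewer cells of a type cannot be told apart from less RNA per cell.

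A GC forms in a B cell follicle when activated B cells proliferate under the control of the transcriptional repressor Bcl6. In its dark zone the cells divide and mutate their antibody genes, and in its light zone they test the mutated receptor on antigen held by follicular dendritic cells and seek help from T cells. Naive follicular B cells are resting cells that recirculate between blood and lymphoid organs by means of chemokine and sphingosine-1-phosphate receptors.

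Signals are scaled intensities (2% trimmed mean of 500 on each array), and throughout the signal of the GC array stands before that of the naive array. A probe set counted as measured where at least 1 of the 2 arrays read above a detection level of 85.8 (GC) or 77.7 (naive), which is the 90th percentile of 174 probe sets for genes of unrelated tissues. Where 1 side lay below its level, the fold was taken against that level and is written as "at least", and a log2 fold as "at least" or "at most". Where the measured probe sets of a gene differed in sign, or one lay over 1 log2 unit from the brightest, the word "range" gives their lowest and highest log2 folds. Of 18194 genes on the array, 10209 were measured, and each was represented by its brightest measured probe set. "Higher" or "lower" with a count means a difference of 2-fold or more in GC cells, a size limit and no test. By that limit 1984 of the 10209 genes (19.4%) were higher and 2238 (21.9%) lower, and the median log2 fold of all of them was -0.11. These shares are the base rate for the list counts below, and a count near them does not set a list apart.

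The 2 RNA preparations differed along the length of the transcripts. The 3' to 5' ratio of the Gapdh control probe sets was 1.48 on the GC array and 18.7 on the naive array, and that of Actb was 1.52 and 12.2. Their 3' probe sets read lower in GC cells (10457 against 17780.2 for Gapdh), while their 5' probe sets read higher (7068 against 949). The same pattern ran through the table. In the 4923 genes with at least 2 measured probe sets, the probe set brightest on the naive array had a median log2 fold of -0.29 and the 8551 others a median of 0.49. When the brightest was chosen on the GC array instead, the medians were 0.06 and 0.32. A fold from 1 probe set can therefore be high or low by where it lies on the transcript, so genes were also sorted by whether all their measured probe sets went the same way. Every measured probe set was at least 2-fold higher in 375 of the 4923 genes (7.62%) and at least 2-fold lower in 204 (4.14%). In a further 394 genes (8%) probe sets passed 2-fold in both directions. The 18 hybridisation spike-in probe sets, added in equal amounts in the usual protocol, had a median of 4092 on the GC array and 7500 on the naive array. Scaling to those spikes would raise the GC signals by 0.87 on the log2 scale against the naive ones. It would make 4276 genes higher and 597 lower. Where it turns the sign of a list's median, the value is given beside that median or in the closing section on processing.

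**Figure D1:**
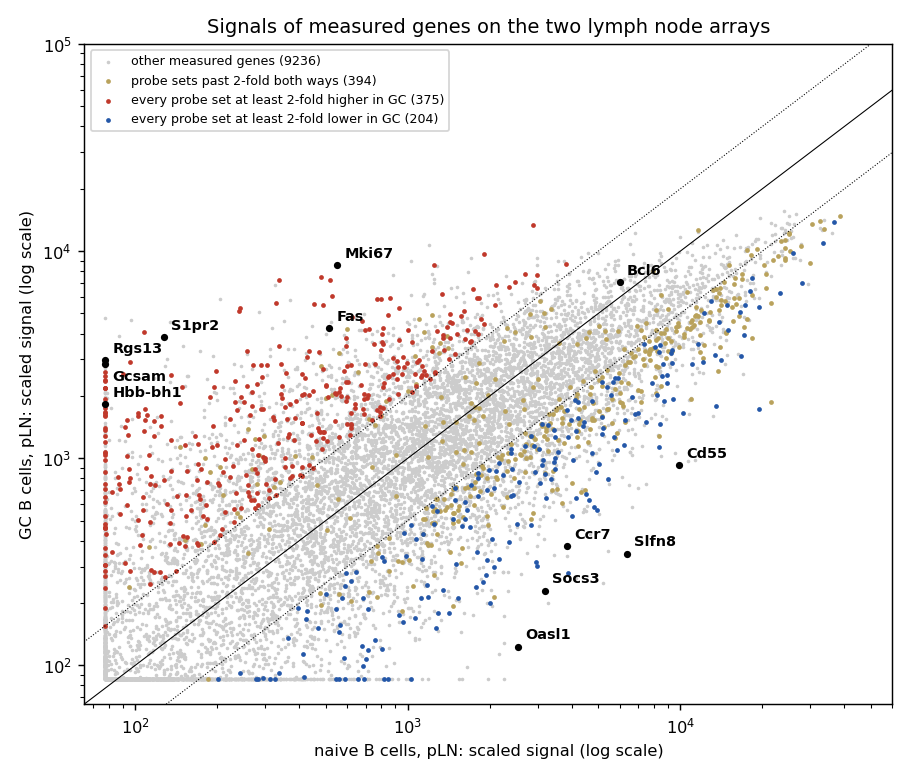
Scaled signals of the 10209 measured genes, naive array on the x axis and GC array on the y axis, both on log scales and raised to the detection level where below it; the solid line marks equal signals and the dotted lines 2-fold. Red points are the 375 genes with every probe set higher in GC cells, blue the 204 with every probe set lower and brown the 394 with probe sets past 2-fold both ways, which lie mostly among genes bright on the naive array.

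Marker genes of the 2 cell types are given to describe the arrays. Fas was part of the sort gate. Rgs13, Gcsam, S1pr2, Ccr7 and Cd55 were chosen with earlier results of these data known, so their directions are no independent check. Fas, the death receptor used in the gate, read 4266 against 515 and was 8.28-fold higher. Rgs13, a GTPase activator that dampens chemokine receptor signals, read 2975 against 26.1, and was at least 38.3-fold higher. Gcsam, a GC-restricted adaptor that regulates B cell motility, read 2841 against 23.8 on one probe set and 2245 against 15.7 on the other, so both naive values lay below the detection level. For S1pr2, the sphingosine-1-phosphate receptor that confines B cells to the GC, the brighter probe set read 3847 against 128 (30.1-fold higher) and the other, also higher in GC cells, had a log2 fold of at least 1.33. The naive side was high for Ccr7, the chemokine receptor that draws lymphocytes toward the T cell zone. It read 375 against 3839.7 and was 10.2-fold lower. Cd55, a complement regulator, read 929 against 9879.7 on its brightest probe set, and the log2 folds of its 3 probe sets ran from -3.41 to -1.72. Both arrays were bright for pan-B cell genes. The receptor subunits Cd79a (8077 against 15281) and Cd79b (10426 against 16579) read high on both, as did Ms4a1, which encodes CD20 (11720.0 against 9996).

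Cell division genes gave the strongest and most even difference. Of 42 measured genes of mitosis, 37 were at least 2-fold higher in GC cells, 0 were lower, and the list's median log2 fold was 3.66 against -0.11 for all genes. Of the 27 with several probe sets, 22 were higher on every one and 0 had probe sets past 2-fold both ways. The proliferation antigen Mki67 read 8548 against 552, 15.5-fold higher, and the topoisomerase Top2a, which untangles sister chromatids, 5144 against 241, 21.4-fold higher, range at least 1.72 to 4.42. Among the mitotic kinases, Aurkb of the chromosomal passenger complex read 1835 against 48.0, at least 23.6-fold higher, range at least 3.10 to at least 4.56. Plk1 read 729 against 29.8, at least 9.39-fold higher, the entry kinase Cdk1 2474 against 364, 6.79-fold higher, and the spindle pole kinase Aurka 1052 against 269, 3.91-fold higher. Spindle and kinetochore genes had some of the largest folds of the list. Nusap1, which bundles spindle microtubules, read 2814 against 45.0, at least 36.2-fold higher, range at least 1.59 to at least 5.18, and Tpx2, the activator of Aurora A, 2171 against 51.9, at least 28.0-fold higher. Nuf2, a subunit of the kinetochore's microtubule-binding complex, read 1886 against 28.9, at least 24.3-fold higher. The S and G2 phase cyclin Ccna2 read 2922 against 95.9, 30.5-fold higher. The 5 members inside the 2-fold limit were named after their values were seen. Incenp, Ndc80, Smc2 and Smc4 had log2 folds of 0.80, 0.77, 0.62 and 0.22, and Pttg1, the separase inhibitor securin, was the only one with a negative value, -0.83. Smc2 also had a probe set of at least 5.03, so its brightest probe set is the lowest of its 5.

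The promoters of these genes are shown because nearly all of the list went the same way and because such promoters carry a known cell cycle element, the CHR (TTTGAA), often near CCAAT boxes bound by NF-Y. Sequences are RefSeq's for GRCm38.p6, from 250 bases before to 50 after the start, with CCAAT and TTTGAA in capitals where they occur on the printed strand. Searching both strands, CCAAT was found in 26 of the 35 mitosis genes with a sequence (74.3%) and in 43.3% of 8350 measured genes. TTTGAA was found in 26 of 35 (74.3%) against 14.4%, and both words together in 23 of 35 (65.7%) against 5.99%. A match describes the letters only.
Cdc20 (chr4:118437294-118437593, minus strand): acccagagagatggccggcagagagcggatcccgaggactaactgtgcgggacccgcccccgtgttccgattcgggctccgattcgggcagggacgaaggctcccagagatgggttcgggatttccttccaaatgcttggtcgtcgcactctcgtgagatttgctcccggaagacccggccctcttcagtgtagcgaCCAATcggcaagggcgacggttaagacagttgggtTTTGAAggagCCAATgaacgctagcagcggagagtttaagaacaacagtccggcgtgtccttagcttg
Ccnb2 (chr9:70421505-70421804, minus strand): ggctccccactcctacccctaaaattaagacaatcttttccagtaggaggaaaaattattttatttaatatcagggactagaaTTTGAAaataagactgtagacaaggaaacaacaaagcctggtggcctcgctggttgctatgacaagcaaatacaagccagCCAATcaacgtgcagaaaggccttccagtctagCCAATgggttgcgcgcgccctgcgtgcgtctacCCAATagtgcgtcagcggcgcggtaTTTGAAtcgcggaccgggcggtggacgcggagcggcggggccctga
Plk1 (chr7:122159185-122159484, plus strand): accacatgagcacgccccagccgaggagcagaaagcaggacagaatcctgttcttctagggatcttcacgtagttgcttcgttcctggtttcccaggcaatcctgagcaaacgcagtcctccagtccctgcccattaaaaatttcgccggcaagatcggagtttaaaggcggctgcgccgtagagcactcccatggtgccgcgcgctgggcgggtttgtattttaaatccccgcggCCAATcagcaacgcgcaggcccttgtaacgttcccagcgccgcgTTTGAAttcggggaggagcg
Cdc20, the activator of the anaphase-promoting complex, read 2635 against 199 and was higher on all 3 of its probe sets (log2 3.73 to at least 4.19). Ccnb2, a B-type mitotic cyclin picked for its matches after its values were seen, read 2407 against 184, 13.1-fold higher.

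DNA replication genes were higher too, by less. Of 43 measured, 27 were at least 2-fold higher and 1 was lower, with a median log2 fold of 1.38. Of the 29 with several probe sets, 14 were higher on all and 1 lower on all. Rrm2, the ribonucleotide reductase subunit that limits nucleotide supply, read 7288 against 518, 14.1-fold higher, range 2.65 to 3.81, and the thymidine kinase Tk1 2695 against 385, 6.99-fold higher. Factors that load and start the replicative helicase were on the high side. Cdc6, which loads the helicase, read 1986 against 49.9, at least 25.6-fold higher, Cdc45, which activates it, 789 against 128, 6.18-fold higher, and the helicase subunits Mcm5 5299 against 925, range at least 1.04 to 2.52, and Mcm2 3788 against 593, range 1.46 to 2.68. The polymerase alpha subunit Pola1 read 1648 against 70.0, at least 21.2-fold higher, and Pole2 of polymerase epsilon 975 against 22.1, at least 12.6-fold higher. Uhrf1, which brings the maintenance methyltransferase to replicated DNA, read 5318 against 243, 21.9-fold higher, range at least 2.55 to 4.45. The sliding clamp Pcna was bright on both arrays (7637 against 3538, 2.16-fold higher). The 1 member called lower was Pold1, the catalytic subunit of polymerase delta. It read 6252 against 23143 with log2 folds of -1.89 to -1.65 over 2 probe sets, and it was named after its values were seen.

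Mcm5 is printed because its promoter holds both forms of the E2F word searched, TTTCGCGC and TTTGGCGC, overlapping on opposite strands (capitals). TTTCGCGC was found in 8 of 35 replication genes with a sequence (22.9%) and 0.814% of measured genes, and TTTGGCGC in 7 of 35 (20.0%) and 1.22%.
Mcm5 (chr8:75109259-75109558, plus strand): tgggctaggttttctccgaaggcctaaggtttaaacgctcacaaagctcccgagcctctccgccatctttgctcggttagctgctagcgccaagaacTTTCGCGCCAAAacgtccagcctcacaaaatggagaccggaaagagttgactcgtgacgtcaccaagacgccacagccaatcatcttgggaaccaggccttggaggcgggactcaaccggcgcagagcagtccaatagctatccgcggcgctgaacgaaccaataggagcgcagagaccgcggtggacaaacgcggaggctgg
Its 3 probe sets had log2 folds of at least 1.04 to 2.52.

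Regulators of the step from G1 to S phase were higher for 13 of 23 genes and lower for 2, with a median of 1.14. Cks1b, a small adaptor of the cyclin-dependent kinases, read 7241 against 338, 21.4-fold higher, and its 2 probe sets had log2 folds of 4.42 to at least 4.57. The kinase Cdk2 read 1426 against 88.5, 16.1-fold higher and its partner Ccne2 1013 against 97.2, 10.4-fold higher. The other cyclin E gene, Ccne1, read 898 against 810.2 on one probe set and 1113 against 362 on the other. Among the E2F factors, which switch on S phase genes, the activator E2f1 read 1223 against 249.8, 4.89-fold higher and the late repressor E2f8 1932 against 50.3, at least 24.9-fold higher. Tfdp1, a partner of E2f1, read 3835 against 423, 9.07-fold higher. Myc, the growth-promoting factor of positively selected cells, was dim on both arrays at 421 against 241. Ccnd3, the D cyclin of dark zone expansion, read 2779.8 against 1586 on its brightest probe set, and its 3 probe sets disagreed, from -2.07 to 0.81. The 2 lower members were Ccnd2 (1184 against 3382, range -3.11 to -0.062) and Ccnd1 (156 against 390.5), the other D cyclins, named after their values were seen.

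Cell cycle inhibitors and quiescence factors did not move as a block. Of 27 measured, 6 were higher (all genes 19.4%) and 7 lower (all genes 21.9%). The median of -0.20 became 0.67 with spike-in scaling. The inhibitors Cdkn2c, Cdkn2d and Cdkn1b were on the GC side at 568 against 62.8, at least 7.31-fold higher, 1189 against 227, 5.25-fold higher and 1486 against 411, 3.62-fold higher. So were the retinoblastoma relatives Rbl1 (2544 against 409, 6.22-fold higher, range at least 1.04 to 3.11) and Rbl2 (451 against 195, 2.31-fold higher). On the naive side stood Klf2, which maintains lymphocyte quiescence and homing (948 against 2322, 2.45-fold lower), and Foxo3, a forkhead factor restrained by PI3 kinase signalling (1523 against 6257, 4.11-fold lower). The p21 gene Cdkn1a lay below the level in GC cells and read 132 in naive cells. Klf6, another Krueppel-like factor, read 3379 against 382, 8.85-fold higher, although its 5 probe sets ranged from at least 0.37 to 3.15.

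**Figure D2:**
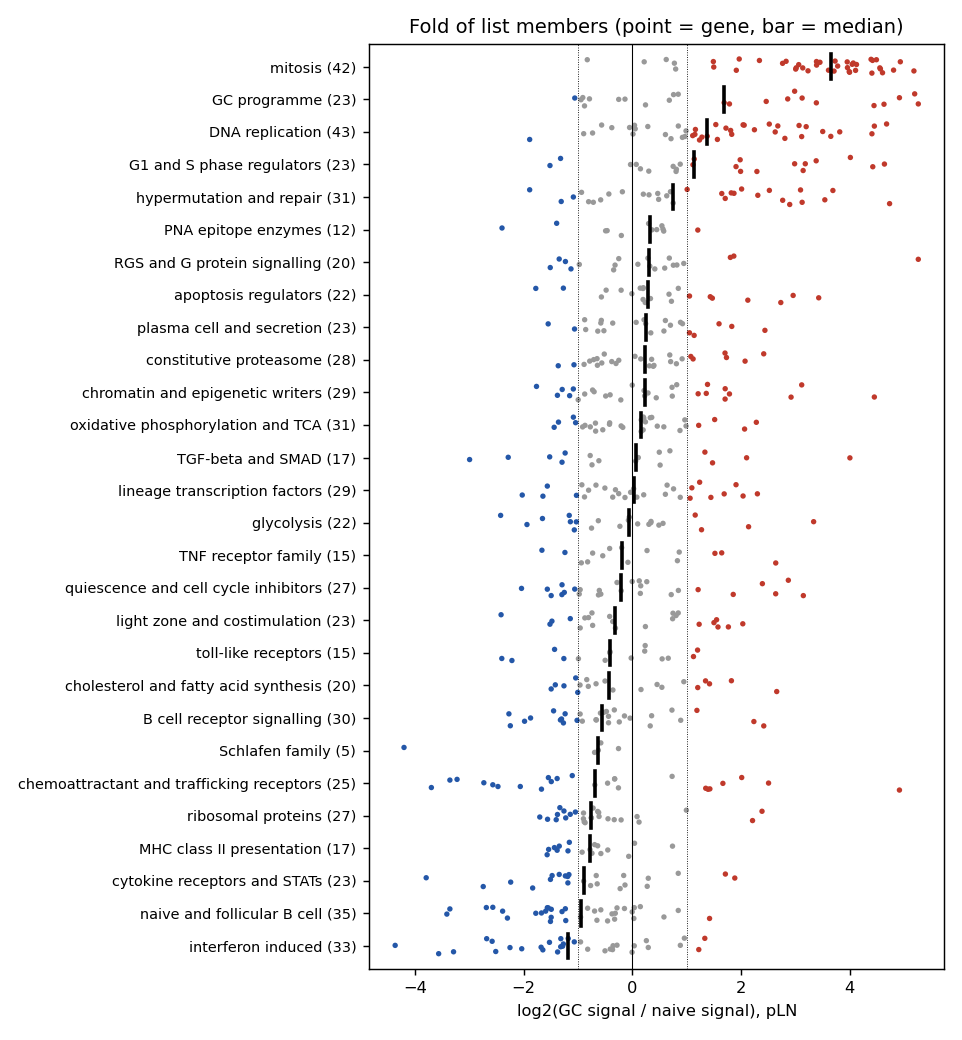
Log2 fold of GC over naive cells in the lymph node for the measured members of gene lists, 1 point per gene on its brightest probe set, with a bar at each list's median, dotted lines at 2-fold and points past them in red (higher) or blue (lower). Mitosis (median 3.66), GC programme (1.69) and DNA replication (1.38) genes lie on the GC side, and interferon induced genes (-1.18) and naive and follicular genes (-0.95) on the naive side.

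Genes of the GC programme were higher in 12 of 23 cases and lower in 1, with a median log2 fold of 1.69. Of the 12 with several probe sets, 6 were higher on all of them. Besides Rgs13, Gcsam and S1pr2, the largest was Mybl1, which encodes the GC-enriched factor A-Myb (1922 against 9.20, at least 24.7-fold higher, range at least 2.58 to at least 4.63). The histone methyltransferase Ezh2, which silences differentiation genes in GC cells, read 4106 against 1190.2, 3.45-fold higher. The master repressor Bcl6 was bright on both arrays (7082 against 5987). Its brightest probe set was 1.18-fold higher, and its other one had a log2 fold of 2.22. Mef2c, a transcription factor of B cell proliferation, read 5588 against 10509, with 5 probe sets from -0.91 to 0.88. Gna13, the G protein subunit downstream of S1pr2, read 5392 against 3365, and all 7 of its probe sets were on the GC side, from 0.68 to 2.69. The 1 lower member was the factor Lmo2 (3862 against 8044, log2 -1.06), named after its value was seen.

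Repair and hypermutation genes were higher in 15 of 31 cases and lower in 3, with a median of 0.75. Ung, the glycosylase that removes the uracils left by hypermutation, read 2909 against 890.0, 3.27-fold higher. Exo1, the nuclease of mismatch repair, read 904 against 76.0, at least 11.6-fold higher, range at least 0.99 to at least 3.54, and the glycosylase Neil1 7674 against 881, 8.71-fold higher. The checkpoint kinase Chek1 read 2063 against 48.8, at least 26.6-fold higher, range at least 0.99 to at least 4.73, and the recombination cofactor Rad51ap1 1505 against 117, 12.9-fold higher, range at least 1.61 to 3.69. Msh6, which recognises mismatches, was 1.35-fold lower at 3326 against 4486. The lower members were Pold1, Atm and Atr, and the last 2, both damage kinases, had other probe sets near or above 0 (-1.08 to 0.48 and -1.31 to 0.014). These 3 were named after their values were seen.

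Chromatin genes were higher in 9 of 29 cases (all genes 19.4%) and lower in 5 (all genes 21.9%), with a median of 0.23. Phf19, a polycomb cofactor, read 1262 against 146, 8.66-fold higher, and the heterochromatin protein Cbx1 2664 against 352, 7.57-fold higher, range at least 0.35 to 2.92. The members on the naive side included Ezh1, the paralogue of Ezh2 found in resting cells, at 437 against 971, 2.22-fold lower and lower on both probe sets (log2 -2.02 to -1.15). Cbx7 of the polycomb complex was on that side too (662 against 2246, 3.39-fold lower, range -1.76 to -0.69). Ezh1 and Ezh2 thus had opposite signs. Dnmt1, the maintenance DNA methyltransferase, could not be assigned a direction, since its 3 probe sets ran from -0.73 to 3.22.

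The B lineage transcription factors had a median of 0.02, which changed sign with scaling (-0.15 with median scaling). Of 29, 8 were higher (all genes 19.4%) and 4 lower (all genes 21.9%). Pax5 and Ebf1, which hold B cell identity, read 521 against 512 and 5489.7 against 5182, range -0.92 to 1.05. The E protein Tcf3 read 1405 against 516, 2.72-fold higher, range 0.12 to at least 2.40, and its relative Tcf4 6033 against 5219, range -0.37 to 1.89. The E protein inhibitors Id2 and Id3 were on the GC side as well, at 626 against 266, 2.36-fold higher and 2389 against 1144, 2.09-fold higher. Pou2f2, which encodes Oct-2, read 2505 against 509, 4.93-fold higher, range 0.57 to 2.30, and Myb 2044 against 545, 3.75-fold higher. Bcl11a had its brightest probe set at 3441 against 14004, but its 6 probe sets spanned -2.02 to 3.40.

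Over all genes, those with the largest even differences on several probe sets were again mostly mitotic. Ordered by the smaller of their folds, the 15 highest were Gcsam, Tpx2, Ccna2, Cks1b, Hbb-bh1, Ncapg, Ncaph, Kif22, Cks2, Parm1, Cenpe, Ckap2l, Cdc20, Racgap1 and Cdca8. The condensin subunit Ncapg read 5635 against 327, 17.2-fold higher, Cks2, the sister of Cks1b, 7469 against 479, 15.6-fold higher, and Cdca8 of the chromosomal passenger complex 5528 against 453, 12.2-fold higher. Parm1, a mucin-like membrane protein, read 4048 against 107 and 1190.1 against 28.1 on 2 probe sets. Hbb-bh1, an embryonic beta-like globin, stood out among them. Its 3 probe sets read 1827 against 24.0, 1649 against 3.80 and 2264 against 3.70, and on the PP arrays its representative probe set read 306 against 53.5. Of 8 other erythroid and platelet markers on the array only Itga2b and Gp9 were measured, both below the level in GC cells, and the alpha globin gene Hba-a1 was not above it on either array. Cross-hybridisation of these probe sets with other globin transcripts, and the part of erythroid RNA in their signal, were not tested.

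A set of genes with a single probe set on the array had folds as large, without that check. Rassf6, a Ras association domain protein, read 4624 against 96.9, 47.7-fold higher. Basp1, a membrane protein that sequesters phosphoinositides, read 3911 against 87.0, 45.0-fold higher, and adenosine deaminase, Ada, 4557 against 134, 34.0-fold higher. Shcbp1, which acts in cytokinesis, read 2712 against 38.1, at least 34.9-fold higher, the cyclin-dependent kinase phosphatase Cdkn3 2378 against 6.70, at least 30.6-fold higher, and the transcript 1110038B12Rik 5854 against 205, 28.6-fold higher. The immediate early gene Fos, a subunit of AP-1, read 2078 against 33.4, at least 26.7-fold higher.

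**Figure D3:**
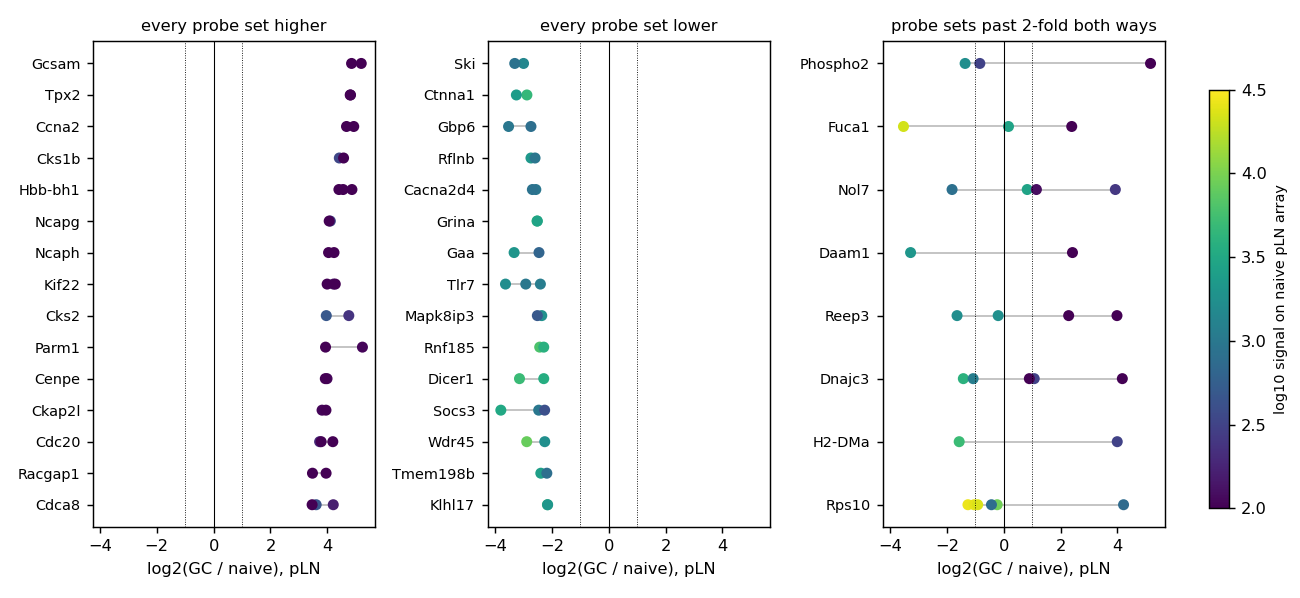
Log2 folds of the individual measured probe sets of named genes, 1 row per gene and 1 point per probe set, coloured by the log10 signal on the naive array, in panels for genes higher on all, lower on all and past 2-fold both ways. The probe sets of genes such as Cdc20 (log2 3.73 to at least 4.19) and Socs3 (-3.79 to at most -2.25) stay on 1 side, whereas those of Fuca1 (-3.53 to 2.39) and H2-DMa (-1.57 to 3.99) fall on both.

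Genes of naive and follicular B cells were lower in 17 of 35 cases and higher in 1, with a median log2 fold of -0.95 that became -0.078 with spike-in scaling. Of the 18 with several probe sets, 3 were lower on all and 2 had probe sets past 2-fold both ways. Beside Ccr7 and Cd55, the largest were Pik3ip1, an inhibitor of PI3 kinase (644 against 4145, 6.43-fold lower), the gut homing integrin subunit Itgb7 (1118 against 6619.9, 5.92-fold lower) and Tsc22d3, a glucocorticoid-induced factor (287 against 1500.1, 5.23-fold lower, range -2.39 to at most -0.57). Gpr183, the oxysterol receptor that moves B cells to the outer follicle, was lower on both probe sets and read 982 against 3129, 3.18-fold lower. Cr2, the complement receptor that lowers the threshold for activation, read 4009 against 12099, 3.02-fold lower. The low affinity IgE receptor Fcer2a read 4112 against 9608, 2.34-fold lower on its brightest probe set, with a second at 2.03 on the log2 scale. S1pr1, the receptor for exit from the node, was near the detection level on both arrays at 99.0 against 136. Klf3 had 6 probe sets from -1.08 to 0.31, and no direction is drawn for it. The 1 higher member was Vpreb3 (1622 against 606), a surrogate light chain relative, named after its value was seen.

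Receptors and adhesion molecules of trafficking divided between the 2 cell types, 7 of 25 higher and 12 lower. Their median of -0.69 became 0.18 with spike-in scaling. Gpr132, a receptor for lysolipids and acid, read 173 against 2245, 13.0-fold lower, and the adhesion receptor Adgre5, or CD97, 540.2 against 5047, 9.34-fold lower. Cxcr5, which guides B cells into follicles, read 3506 against 9853, 2.81-fold lower. Cxcr4, which holds cells in the dark zone, was 1.25-fold lower at 5379 against 6744. S1pr2, described above, was the highest member.

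Among 20 RGS and G protein signalling genes, 3 were higher (all genes 19.4%) and 4 lower (all genes 21.9%), and the median was 0.30. Of the 15 with several probe sets, 0 were higher on all, 1 was lower on all and 8 had probe sets of both signs. Only Rgs13, Rgs1 and Rgs10 passed the limit upward. Rgs1 read 283 against 26.4, at least 3.65-fold higher and Rgs10 1681 against 482, 3.49-fold higher, while Rgs19 was on the naive side at 6357 against 18104, 2.85-fold lower. The receptor kinase Grk6 read 5062 against 12860.2 on its brightest probe set, within a range of -1.35 to 1.83.

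Interferon induced genes were on the naive side: 18 of 33 were at least 2-fold lower in GC cells, 2 were higher, and the median was -1.18. The median stayed negative at every alternative scaling, with -0.30 under spike-in scaling as the smallest in size. The 2'-5' oligoadenylate synthetase family members Oasl1 and Oas2 read 123 against 2533 and 54.4 against 1013 and were 20.6-fold lower and at least 11.8-fold lower. Mx1, a dynamin-like antiviral GTPase, read 473 against 3027, 6.40-fold lower, and Rsad2, or viperin, 119 against 712, 5.97-fold lower, range -2.58 to at most -1.24. Rtp4 read 163 against 928, 5.70-fold lower. Ifit1 stood near the detection level on both arrays (50.7 against 83.7) and gives no fold. The higher members were Trim30a (4430.4 against 1899) and Cmpk2 (325 against 129), named after their values were seen, and the latter had a second probe set at -0.40 on the log2 scale.

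Ifit3 is printed as the IFIT gene with the largest fold, with matches of an interferon response element in capitals. The element searched was GAAA followed, after any 2 bases, by GAAA again, and both matches lie on the opposite strand, so that TTTC is read here. It was found on either strand in 14 of 23 listed genes with a sequence (60.9%) and in 3.64% of measured genes.
Ifit3 (chr19:34583279-34583578, plus strand): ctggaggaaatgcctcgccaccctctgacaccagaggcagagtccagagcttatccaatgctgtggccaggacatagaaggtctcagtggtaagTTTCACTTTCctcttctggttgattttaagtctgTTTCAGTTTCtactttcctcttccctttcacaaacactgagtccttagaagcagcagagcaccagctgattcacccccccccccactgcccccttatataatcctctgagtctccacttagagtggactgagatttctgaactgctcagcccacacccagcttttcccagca
Ifit3, which binds IFIT partners on foreign RNA, read 200.1 against 1955, 9.77-fold lower. In the Schlafen family, whose members include interferon-inducible regulators of growth, 1 of 5 passed the limit. Slfn8 read 347 against 6366, 18.4-fold lower, and the family's median of -0.63 became 0.25 with spike-in scaling.

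Cytokine receptors and their signal transducers were lower in 11 of 23 cases and higher in 2, with a median of -0.90 (-0.022 with spike-in scaling). Socs3, the feedback inhibitor of gp130 signalling, had the largest fold. Its 3 probe sets read 229.8 against 3182, 179 against 984 and 71.4 against 408, lower in GC cells on each. Il6st, which encodes gp130 itself, read 211 against 997, 4.72-fold lower, and the interleukin 10 receptor Il10ra 675 against 4514, 6.69-fold lower, range -2.74 to at most -1.26. Stat6, which relays interleukin 4, was lower on both probe sets (2511 against 8947, 3.56-fold lower), while the receptor Il4ra read 3824 against 8980.5 on one probe set and 611 against 244 on the other, past 2-fold in opposite directions. Il21r, the receptor for the T follicular helper cytokine, was on the other side at 2097 against 1168, 1.80-fold higher. Stat3, which it activates, read 1260.1 against 1384, range -0.14 to 0.45. The 2 higher members were the interferon gamma receptor chains, Ifngr1 at 592 against 160.4, 3.69-fold higher and Ifngr2 at 773 against 236, the second named after its value was seen.

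Toll-like receptor genes were higher in 2 of 15 cases (all genes 19.4%) and lower in 4 (all genes 21.9%). Their median of -0.41 became 0.46 with spike-in scaling. Tlr7, the endosomal receptor for single-stranded RNA, read 135 against 1666, 212 against 1118 and 132 against 996 on its 3 measured probe sets and was lower on all (log2 -3.63 to -2.40). Tlr2 read 58.1 against 398, at least 4.64-fold lower. Tlr4, the lipopolysaccharide receptor, read 372 against 162, 2.30-fold higher, and the adaptor Tirap read 803 against 368, 2.18-fold higher. Ly86, which encodes MD-1, was bright on both arrays (5789 against 13859, 2.39-fold lower).

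The genes lowest on all of several probe sets had varied functions. The 15 were Ski, Ctnna1, Gbp6, Rflnb, Cacna2d4, Grina, Gaa, Tlr7, Mapk8ip3, Rnf185, Dicer1, Socs3, Wdr45, Tmem198b and Klhl17. Ski, a corepressor of SMAD signalling, read 179 against 1421, 7.96-fold lower, and alpha-catenin, Ctnna1, 632 against 4634, 7.33-fold lower. Gbp6, an interferon-inducible GTPase, read 121 against 801, 6.65-fold lower, and the lysosomal glucosidase Gaa 199 against 1999 (log2 -3.32). Dicer1, the nuclease that matures microRNAs, read 563 against 4950.3 on one probe set and 724 against 3525 on the other. Among genes with exactly 1 probe set on the array the lowest were Dglucy, Oasl1, Crip3, Slfn8, Rin3, Cyp4f13, Oas2 and Fbxw10. Dglucy, the D-glutamate cyclase of mitochondria, read 55.2 against 1971, at least 23.0-fold lower. Crip3, a cysteine-rich LIM protein, read 114 against 2166, 19.0-fold lower, and Rin3, a Rab5 exchange factor, 264 against 4147, 15.7-fold lower.

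B cell receptor signalling genes were lower in 10 of 30 cases and higher in 3, with a median of -0.56. That median was -0.14 with quantile normalisation, -0.036 with cyclic loess and 0.32 with spike-in scaling. In this list probe sets often disagreed, and 3 of the 16 genes with several had them past 2-fold both ways. The kinase Syk, which passes on the receptor signal, read 3809 against 18373 on its brightest probe set and ranged from -2.27 to 1.39. Vav2, an exchange factor, was on the GC side at 4107 against 769, 5.34-fold higher. Pik3r1, the regulatory subunit of PI3 kinase, was higher on all 3 probe sets (log2 1.14 to 2.27). Pirb, an inhibitory immunoglobulin-like receptor, read 671 against 3177, 4.74-fold lower.

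MHC class II presentation genes had 0 of 17 higher and 7 lower, and a median of -0.78. That median was -0.235 with quantile normalisation, -0.20 with cyclic loess and 0.096 with spike-in scaling. Of the 9 with several probe sets, 0 were lower on all and 4 had them past 2-fold both ways. Over all measured genes, the brightest of 8 equal bins of mean signal had a median of -0.68. What part signal level has in the list's median was not tested. The invariant chain Cd74 and the beta chain H2-Eb1 were bright on both arrays, at 14385 against 19673 and 10029.5 against 17207. Their master activator Ciita read 3572 against 5335, range -0.58 to 0.12. H2-DMa, which helps load peptide, read 1696 against 5025 on one probe set and 4931 against 310.2 on the other. The modulator H2-Oa read 6171 against 16096, 2.61-fold lower, and Marchf1, the ligase that turns over class II, 2799 against 7560.4, 2.70-fold lower, range -1.43 to 0.15. The light zone marker Cd83 read 8587 against 14367.

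Of 23 light zone and costimulation genes 6 were higher (all genes 19.4%) and 4 lower (all genes 21.9%). Their median of -0.31 turned positive under several settings (0.56 with spike-in scaling). Cd86, the ligand of CD28, was higher on both probe sets and read 3937 against 1345, 2.93-fold higher. Icosl, the ligand of the follicular helper receptor ICOS, was on the naive side at 4963 against 13834, 2.79-fold lower. Cd40, which receives T cell help, had 3 probe sets from -1.44 to 1.89. Slamf1 read 4358 against 1066, 4.09-fold higher, range -0.56 to 2.69, and the NF-kB inhibitor Tnfaip3, or A20, 815 against 239, 3.40-fold higher. Egr3, induced by antigen receptor signals, read 1327 against 445, 2.98-fold higher, range at most -0.26 to 1.58, and Nfkb2 of the alternative NF-kB pathway 899 against 4791, 5.33-fold lower, range -2.41 to -0.082.

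In the TNF receptor family 3 of 15 were higher (all genes 19.4%) and 2 lower (all genes 21.9%). The median of -0.20 became 0.68 with spike-in scaling. The BAFF receptors Tnfrsf13c and Tnfrsf13b read 8344 against 14754 and 3734 against 5445. Tnfsf9, the ligand 4-1BBL, read 483 against 62.7, at least 6.22-fold higher, Tnf 825 against 264, 3.13-fold higher and its receptor Tnfrsf1b 414 against 144, 2.87-fold higher. Tnfrsf18, or GITR, was on the naive side at 167 against 529, 3.17-fold lower.

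Apoptosis regulators were higher in 7 of 22 cases (all genes 19.4%) and lower in 2 (all genes 21.9%), with a median of 0.29. Those that promote survival and those that promote death both appear among the higher ones. Bcl2, the survival factor that GC cells are known to turn down, read 388 against 1329, 3.42-fold lower, and all 5 of its probe sets were negative (-2.28 to -0.43). Pmaip1, or Noxa, read 603 against 74.4, at least 7.77-fold higher, and Bim, Bcl2l11, 3069 against 1136, 2.70-fold higher, range -0.21 to 2.57. Apaf1, the scaffold of the apoptosome, read 1011 against 152, 6.64-fold higher, and the caspases Casp2 and Casp6 1499 against 344 and 559.6 against 202. The caspase inhibitor Xiap read 2095 against 195, 10.8-fold higher, with 4 probe sets from 0.36 to 3.43. Mcl1, needed by GC cells for survival, was very bright on the naive array (9473 against 22819), but its 6 probe sets ran from -1.63 to 2.05. Bcl2l1 was 215 against 194.

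TGF-beta and SMAD genes had no common direction. Of 17, 4 were higher (all genes 19.4%) and 5 lower (all genes 21.9%), and the median was 0.06 with sign changes under 5 settings. Tgfbr1, the type I receptor, read 2483 against 155, 16.0-fold higher, while the type II receptor Tgfbr2 read 3555 against 10195, 2.87-fold lower, range -1.52 to at most 0.023. The inhibitor Smad7 was higher on both probe sets (1544 against 359.7, 4.29-fold higher, range 2.10 to at least 5.00), and the effector Smad3 lower (688 against 3347, 4.87-fold lower).

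The enzymes that shape the PNA ligand mostly lay within 2-fold at the transcript level. Of 12, 1 was higher (all genes 19.4%) and 2 were lower (all genes 21.9%). PNA binds galactose on O-glycans when sialic acid does not cover it. St3gal1, which adds that sialic acid, read 409 against 1073, 2.62-fold lower and was lower on both probe sets (log2 -2.16 to -1.39). Gne, the entry enzyme of sialic acid synthesis, read 328 against 1729, 5.27-fold lower, range -2.40 to at most -0.63, and St3gal2, a related sialyltransferase, 629 against 273, 2.30-fold higher. C1galt1, which makes the core, read 1111 against 762, range at least 0.45 to 2.16, and its chaperone C1galt1c1 295 against 197. The branching enzyme Gcnt1 read 3308 against 2577. St6gal1 read 4938 against 4013, range 0.30 to at least 1.67. Cmah, which makes the glycolyl form of sialic acid and is known to be low in mouse GC cells, read 1304 against 1499.8 with 6 probe sets from -0.47 to at least 2.82.

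Plasma cell and secretion genes were higher in 5 of 23 cases (all genes 19.4%) and lower in 2 (all genes 21.9%), median 0.24. Jchain, which joins IgM and IgA polymers, read 9253 against 1707, 5.42-fold higher, and the chaperone Mzb1 5705 against 1606, 3.55-fold higher. Prdm1, the regulator of plasma cell fate, was near background at 118 against 38.2. Xbp1, a driver of the secretory programme, read 2647 against 2092 on its brightest probe set, and the log2 folds of its 4 probe sets, all positive, ran from 0.34 to 2.68. Irf4 read 3555 against 4565. Only 3 of the 11 listed immunoglobulin constant genes had a match in the annotation, and their median was -0.79 (0.086 with spike-in scaling). These genes differed among their own probe sets. Ighm was bright on both arrays (10161 against 17553), with 9 probe sets from -1.37 to 2.20, and Igha read 419.7 against 55.0, at least 5.40-fold higher, range at least 0.84 to at least 2.43.

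Each metabolic list held members on both sides of the limit, which 19.4% of all genes passed upward and 21.9% downward. Glycolysis genes were higher in 4 of 22 cases and lower in 7 (median -0.06, 0.81 with spike-in scaling). The glucose transporter Slc2a1 was lower on all 3 probe sets and read 3102 against 16625, 5.36-fold lower, whereas the lactate transporter Slc16a1 read 899 against 89.1, 10.1-fold higher. Hexokinases parted, with Hk2 at 790.3 against 327, 2.42-fold higher and Hk1 at 379 against 1191, 3.14-fold lower. Hif1a, the hypoxia factor, read 4438 against 1008, 4.40-fold higher, range at least 0.59 to at least 2.81, and Ldha and Pkm read 7640.2 against 7946 and 5538 against 3745. Oxidative phosphorylation and TCA cycle genes were higher in 4 of 31 cases and lower in 4 (median 0.16). Ndufa4 read 2532 against 521, 4.86-fold higher and Idh2 1153 against 276, 4.18-fold higher, range -0.29 to 2.06, but Cox4i1 read 7334 against 6206. Cholesterol and fatty acid genes were higher in 5 of 20 cases and lower in 5 (median -0.43, 0.44 with spike-in scaling). Fdps and Idi1 of the mevalonate pathway read 1191 against 189, 6.30-fold higher and 2008 against 568, 3.54-fold higher, range 1.82 to at least 4.84, while the lipid regulator Srebf1 read 1152 against 3243, 2.81-fold lower.

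Proteasome subunits were higher in 6 of 28 cases (all genes 19.4%) and lower in 2 (all genes 21.9%), with a median of 0.23. The highest was the beta subunit Psmb7 (6067 against 1136, 5.34-fold higher). Ribosomal protein genes were lower in 9 of 27 cases and higher in 2, with a median of -0.76. That median was positive with quantile (0.18), cyclic loess (0.072) and spike-in scaling (0.12). Of the 12 ribosomal genes with several probe sets, 0 were lower on all and 1 was higher on all. In 8 of them the probe sets differed in sign, and in 4 they passed 2-fold both ways (all genes 8%). All measured genes were also put in 8 equal bins of mean signal. From the dimmest bin to the brightest, the median log2 folds were -0.0022, 0.12, 0.23, 0.14, -0.020, -0.12, -0.27 and -0.68. What part signal level has in the ribosomal median was not tested. Rps14 and Rps27 were exceptions at 13339 against 2882, 4.63-fold higher and 507 against 97.0, 5.22-fold higher.

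In some genes the probe sets lay far apart, so that no direction can be given for the gene from this pair of arrays. Fuca1, a lysosomal fucosidase, had probe sets from -3.53 to 2.39 on the log2 scale, with signals of 1860.1 against 21431 on the brightest. The range was -1.36 to at least 5.16 for the phosphatase Phospho2, -1.42 to at least 4.17 for the chaperone Dnajc3 and -1.26 to 4.21 for the ribosomal protein Rps10. Nol7, Reep3 and Daam1 had ranges of -1.82 to 3.92, -1.64 to at least 3.98 and -3.28 to 2.42. In all of these and in H2-DMa, except Nol7 and Reep3, the probe set brightest on the naive array had the lowest fold.

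Markers of other cells were mostly dim. Of 21 T cell markers on the array 9 were measured. Sums here run over all markers of a list on the array, measured or not, with each gene's brightest probe set on each array. For the T cell markers they were 1638 against 1722. The defining genes Cd3e and Cd3d read 95.3 against 95.8 and 106 against 84.1, close to the detection level. The members past 2-fold went both ways, 2 higher and 2 lower. Cd8a read 127 against 548, with a second probe set of at most -0.10 on the log2 scale, and Lat, an adaptor of the T cell receptor, 407 against 75.6, at least 5.24-fold higher. Of 22 myeloid and dendritic markers 11 were measured, 5 higher and 3 lower past 2-fold. The sum over all 22 was larger in GC cells at 5383 against 1939.9. Apoe (2528 against 304) and Flt3 (1083 against 71.3) made up most of it, with S100a9 at 481 against 26.2 and Lyz2 at 244 against 42.3. The macrophage marker Adgre1 was higher on the naive array (55.8 against 323), and Csf1r and Itgam were not above the level on either array. Of 18 stromal and follicular dendritic markers 6 were measured. The sum over all 18 was 9516 against 9347, nearly all of it from Fcgr2b and Cr1l, which B cells also express. The follicular chemokine Cxcl13 was not above the level on either array. What part such cells have in the differences above was not tested.

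The same sort from Peyer's patches, where GCs form without immunisation, gives a further reading of each gene from independent pools. The naive PP array was more 3' biased still, with a Gapdh 3' to 5' ratio of 96.4 against 1.67 on the GC PP array, so the 2 tissues share that difference and an equal sign in both is no check on it. Of 9552 genes measured in both tissues on the same probe set, 2770 (29%) were higher in GC cells in PP and 2487 (26%) lower. Of 1962 genes higher in pLN, 1686 were higher in PP, and of 2169 lower in pLN, 1681 were lower in PP. Only 16 passed 2-fold in opposite directions. Of the 375 genes higher on all pLN probe sets, 373 were measured in PP, 347 were higher there and 0 lower, with median log2 folds of 1.98 (pLN) and 2.53 (PP). Of the 204 lower on all, 201 were measured, 172 lower and 2 higher, with medians of -1.79 and -2.13. Mitosis genes had medians of 3.66 in pLN and 3.48 in PP, and interferon induced genes -1.18 and -0.93.

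**Figure D4:**
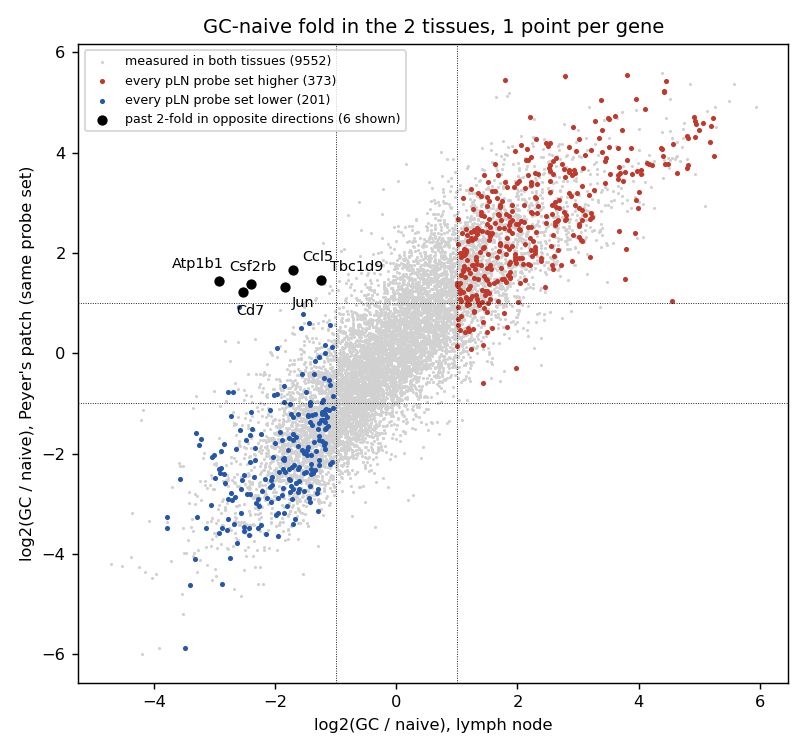
Log2 fold of GC over naive cells for the 9552 genes measured in both tissues, lymph node on the x axis and Peyer's patch on the y axis, with dotted lines at 2-fold. Genes with every lymph node probe set higher (red, 373) or lower (blue, 201) lie mainly in the matching quadrant, and 6 labelled genes are lower in lymph node GC cells and higher in Peyer's patch GC cells.

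Some genes differed between the tissues by more than the rest, and for these the pLN fold stands apart. Among genes detected on all 4 arrays (7594), the pLN fold exceeded the PP fold most for Plcb2, a phospholipase of G protein signalling, with log2 0.19 in pLN and -2.92 in PP. Zkscan6 (0.28 and -2.82, but -1.54 and -2.29 on its other probe set), the cannabinoid receptor Cnr2 (-1.54 and -4.40), Klf2 (-1.29 and -3.84), the kinase Nuak2 (-0.13 and -2.67) and Nudt16 (-0.74 and -3.25, but 1.72 and 1.19 on its other probe set) followed. In the other direction stood Atp1b1, a subunit of the sodium pump, which read 93.8 against 712 in the nodes, whereas the PP arrays gave 826 against 303. Of its 4 probe sets this reversal held on that one and on another (log2 -1.63 in pLN and 1.91 in PP), while the remaining ones were negative in PP as well (-0.21 and -0.51). Csf2rb, the common beta chain of the IL-3, IL-5 and GM-CSF receptors, read 175 against 928 in the nodes but 737 against 282 in PP, and its other probe set also reversed (log2 at most -1.02 in pLN and 1.02 in PP). For the lymphocyte receptor Cd7 the pairs were 90.3 against 521 and 511 against 219. For the chemokine Ccl5 they were 170.3 against 554 and 465 against 129, and for the AP-1 subunit Jun 157 against 565 and 479 against 192, with -2.11 and 0.50 on the log2 scale on its other probe set. These were lower in GC cells in pLN and higher in PP. Nfkbiz and Gbp7 also had lower folds in pLN (-0.62 and -2.60) than in PP (3.01 and 0.93), but 1 further probe set of each was negative in both tissues (-1.27 and -0.21 for Nfkbiz, -1.08 and -0.29 for Gbp7). The brightest Ighm probe set had -0.79 in pLN and 2.76 in PP, whereas the next brightest, with -1.37 and -2.51, and a further one, with -0.84 and -2.07, went the other way, so no tissue difference is drawn for Ighm. Tissue, immunisation and array cannot be told apart in these differences.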

How the data were processed

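RNA of sorted cells was extracted with TRIzol and hybridised as biotinylated cRNA, per the labels' protocols. The signals came from the Affymetrix software GCOS (submitters' processing notes), of which neither version nor algorithm is stated in the sources used here. The table the authors deposited holds linear intensity values with a median of 1 on every array. All arrays were then brought to a 2% trimmed mean of 500, a step that assumes that the bulk of signals is equal in both cell types.

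Of 45101 probe sets, the platform annotation gave 1 symbol for 34958, several for 932 and none for 9211; 34754 matched a RefSeq gene by Entrez identifier, which changed 0 symbols. The detection level was the 90th percentile of 174 probe sets for genes of other tissues. Signals below it were raised to it, and folds of 2 or more were counted. On the GC pLN array 20628 probe sets (45.7%) and on the naive pLN array 19571 (43.4%) lay above it. With 1 array per group no test was run, and precision is limited by the number of arrays. Of genes with several measured probe sets, the median range between them was 1.37 on the log2 scale. That is a spread between probe sets on 1 pair of arrays, and it does not measure the error of an array or a pool.

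The members and gene lists were chosen with earlier results of these data known. The genes named were the 15 highest and lowest that agreed over all their probe sets, the 8 highest and lowest with a single probe set, the sort markers, the key and up to 4 largest members of each list, the 8 most opposed genes, the 6 largest pLN to PP differences each way, and up to 6 genes opposite in PP. Genes of the lists without a match in the annotation were not analysed here. Promoter sequences were RefSeq's (GRCm38.p6). The calculations were tested on simulated data and used Python 3.11.15, with R 4.3.3 and limma 3.58.1 for quantile and cyclic loess normalisation. Alternatives covered scaling, the level, the offset, the probe set and the threshold. 0 columns of the table were left unused, and the PP arrays served for comparison only.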

Additional observations from a re-analysis of the deposited data

Results flagged for a closer look

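The GC to naive fold went past 2-fold in opposite directions in the 2 tissues for 6 named genes, and these differences between tissues were not tested. In pLN the log2 fold was -2.92 for Atp1b1, -2.53 for Cd7, -2.40 for Csf2rb, -1.84 for Jun, -1.70 for Ccl5 and -1.24 for Tbc1d9. In PP it was 1.45, 1.22, 1.39, 1.32, 1.66 and 1.46 in the same order, where the value of Ccl5 is a bound, as is the pLN value of Tbc1d9. The signals of Tbc1d9 were 60.9 against 203 in the nodes, with 545 against 199 in PP. On these probe sets all 6 were lower in pLN GC cells and higher in PP GC cells, but Atp1b1 had others that were negative in both tissues.

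Probe sets that the platform annotation does not list, and that therefore name no gene here, were counted as well. Of 3115 such probe sets measured, 981 were at least 2-fold higher in pLN GC cells and 383 at least 2-fold lower. Of measured genes, 19.4% were higher and 21.9% lower, but on the brightest probe set of each, which is an unlike unit. The share over all measured probe sets is not given here, so no excess is read from these counts.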

How the results depend on the processing

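With 1 array per cell type, the folds carry the variation of a pool and an array that was never repeated. The naive array is 3' biased, so a fold from a single probe set depends on its place in the transcript, and probe positions were not used here. Folds of dim genes are bounds. No paired analysis was possible because each group is 1 array. No alternative was chosen after seeing the data.

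The counts were 1984 genes higher and 2238 lower, with 375 higher and 204 lower on every probe set. Spike-in scaling gave 4276, 597, 1336 and 28, so that 87.7% of calls were higher where 47.0% had been, and moved the median of all genes from -0.11 to 0.76. The median of all genes was -0.29 with median scaling and -0.28 with quantile normalisation. Genes lower on every probe set numbered 347 with quantile normalisation, 320 without a filter and 131 without probe sets ending in s_at or x_at. Without a filter 4089 genes were lower. A limit of 1.5-fold gave 3493 lower, and 683 higher and 424 lower on every probe set, and 4-fold gave 699 and 481, and 97 and 22. The filter and the s_at and x_at settings change which probe sets are admitted, and the limits change the count by construction. Every other count stayed within 1.5 times its value. When a gene's fold was the mean over its probe sets, 2149 were higher and 1571 lower.

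Of the list medians, those of interferon induced (-0.30), naive and follicular (-0.078) and cytokine receptor genes (-0.022) stayed negative with spike-in scaling. These turned positive with it: trafficking receptors 0.18, B cell receptor signalling 0.32, MHC class II 0.096, light zone 0.56, quiescence 0.67, immunoglobulin 0.086, Schlafen 0.25, TNF receptors 0.68, Toll-like receptors 0.46, glycolysis 0.81, cholesterol 0.44, ribosomal 0.12, T cell 0.83 and erythroid markers 0.76. Median scaling gave -0.15 for lineage factors, -0.11 for TGF-beta and -0.011 for oxidative phosphorylation. Quantile normalisation gave 0.068 for immunoglobulin, -0.33 for TGF-beta, 0.0072 for glycolysis and 0.18 for ribosomal genes. Cyclic loess gave 0.0074 for light zone, 0.038 for immunoglobulin, -0.17 for TGF-beta, 0.17 for TNF receptors, 0.099 for glycolysis and 0.072 for ribosomal genes. Adding the background median gave -0.61 for TGF-beta, and a common level -0.28. The 95th percentile level gave 0.063 for quiescence, 0.13 for glycolysis, 0.45 for T cell and -0.24 for stromal markers. Without a filter T cell, myeloid and stromal markers had 0.15, -0.19 and -0.059. The probe set brightest on the naive array gave -0.031 for lineage factors and -0.18 for oxidative phosphorylation. The mean of probe sets gave 0.24 for light zone, 0.44 for immunoglobulin, 0.065 for glycolysis and 0.35 for cholesterol genes. Leaving out s_at and x_at probe sets gave 0.24 for light zone, -0.0063 for oxidative phosphorylation and 0.15 for cholesterol genes. The cause of each of these changes was not tested.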
